A study of Arabidopsis thaliana with 12 samples.

Results

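Formate, folate and glycine cleavage genes were followed in rosette leaves of Arabidopsis thaliana under formaldehyde gas. The set holds 4 genes, chosen by name as measured genes of one-carbon metabolism in the native plant: FDH (AT5G14780), FOLD2 (AT3G12290), FOLD1 (AT2G38660) and GLDT (AT1G11860). They are 4 of the 13356 genes that a probe set with a single gene name measured, and each was read by 1 probe set of the 22746 tested. All 12 plants were of ecotype Columbia, 7 weeks old, and of the double transgenic line AB. This line expresses rmpA and rmpB of Mycobacterium gastri in its chloroplasts, whose products fix formaldehyde onto a sugar phosphate, so that every group, the controls included, carried the bacterial route as well as its own. Plants without the transgenes were not analysed here. After 72 h of acclimation in constant light at 24 °C, the groups of 3 plants were kept for 150 min outside the chamber (outside, under 0.08 ppm formaldehyde), in the ventilated chamber with clean air (air, under 0.04 ppm), at 1 to 2 ppm (low) or at 14 to 16 ppm (high). The 3 plants of a chamber condition were placed in the chamber together, so the condition and its run cannot be told apart, and p-values cover the spread between plants only.

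In plant cells, formaldehyde is oxidised by way of glutathione to formate. FDH, formate dehydrogenase of the mitochondrion, oxidises formate to carbon dioxide. Formate can instead be joined to tetrahydrofolate, the carrier of single carbon units. The FOLD enzymes, methylenetetrahydrofolate dehydrogenase and methenyltetrahydrofolate cyclohydrolase in 1 protein, interconvert the formyl and methylene forms of that carrier. GLDT is the aminomethyltransferase (T protein) of the mitochondrial glycine cleavage system, which passes a carbon of glycine to tetrahydrofolate and is abundant in green leaves, where photorespiration supplies the glycine.

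At high formaldehyde GLDT and FOLD2 transcripts were lower than in each of the other groups, while FDH and FOLD1 did not pass the test in any of the 6 pairs of groups. A probe set was called at a limma adjusted p under 0.05, with Benjamini-Hochberg adjustment over all probe sets. Low formaldehyde, and the chamber itself, gave 0 calls among the 4 genes.

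The measured markers bore the leaf label out. Of 7 listed genes of photosynthetic leaf tissue 5 were measured, with levels from 12.24 to 15.25 on the log2 scale in all plants. PYK10, a root gene, stood at the lowest value of the table in 11 of 12 plants and reached 6.17 in the other one, air plant 3. The summed linear signal of the 5 leaf genes ran from 123073 to 127760 units in the outside plants, 112791 to 120466 in air, 114907 to 120580 at low and 93635 to 107402 at high formaldehyde. Of the 5 genes, 2 fell in high against air, PRK by 0.96 (limma adjusted p = 1.29e-05) and SBPASE by 0.92 (adjusted p = 0.00580), both enzymes of the Calvin cycle, while RCA had -0.14, LHCB4.2 -0.06 and LHCB4.1 -0.0070. The guard cell gene FMA had group means of 6.25 outside, 5.02 in air, 5.45 at low and 4.18 at high formaldehyde. It thus stood higher outside than in air, with formaldehyde added to neither. In the high plants FMA fell by 0.83 (adjusted p = 0.0490) against air, by 1.27 against low and by 2.07 against outside plants. AT1G22690, also listed for guard cells, had -0.58 (adjusted p = 0.415), -1.57 (0.0247) and 0.89 (0.173) in the same pairs. Fewer cells of a type and less RNA per cell cannot be told apart in such samples. The array holds a pair of probe set series for the 3' minus 5' signal of control transcripts, a sign of RNA integrity, and they did not move alike. For GAPDH it was 1.54 ± 0.03 (SD, n = 3) at high formaldehyde and 1.82 ± 0.23 in air in the first series, but 0.23 ± 0.05 and 0.03 ± 0.10 in the second. For ubiquitin it was 0.59 ± 0.09 and 0.64 ± 0.05 in the first and -0.48 ± 0.04 and -0.37 ± 0.06 in the second, and for actin 5.46 ± 0.02 and 5.49 ± 0.07, then 0.89 ± 0.15 and 0.65 ± 0.14. The part of the cells and of RNA integrity in the results below was not tested.

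GLDT stood at log2 levels of 13.40, 13.32 and 13.03 in outside plants 1, 2 and 3, at 12.96, 13.10 and 12.79 in the air plants and at 13.05, 13.13 and 13.31 in the low plants. In the high plants it stood at 11.86, 11.57 and 12.53. All 3 high plants lay below all 9 other plants, whose groups overlapped. High plant 3 stood nearest to the others. The group means were 13.25 ± 0.19 (SD, n = 3) outside, 13.16 ± 0.13 at low, 12.95 ± 0.16 in air and 11.99 ± 0.49 at high formaldehyde. In this order, outside, low and air did not differ beyond their spread.

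The fall of GLDT in high against air was 0.96 on the log2 scale, or -0.96 ± 0.22 (SE), with a 95% interval from -1.47 to -0.46 and a limma adjusted p of 0.00839. Its level at high formaldehyde was thus 51.3% of that in air. Against low plants it fell by 1.18, to 44.3% (adjusted p = 0.00304), and against outside plants by 1.26, to 41.7% (adjusted p = 0.00170). The comparisons share the high plants and are not independent. Without high plant 3 the change against air was -1.23 and without high plant 2 it was -0.76, with adjusted p up to 0.0336 over the 12 fits that each left out a plant. With only the 6 high and air arrays in the fit the adjusted p was 0.0620.

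FOLD2, known as the cytosolic enzyme of the family, stood at 11.14, 11.29 and 11.05 in the outside plants, at 11.08, 11.24 and 11.27 in air and at 11.18, 11.05 and 11.13 in the low plants. In the high plants it stood at 10.77, 10.80 and 10.90. Again the 3 high plants lay below all 9 others, and the others overlapped. The group means were 11.20 ± 0.10 (SD, n = 3) in air, 11.16 ± 0.12 outside, 11.12 ± 0.07 at low and 10.83 ± 0.07 at high formaldehyde. The first 3 of these did not differ beyond their spread.

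FOLD2 fell by 0.37 in high against air (-0.37 ± 0.08, SE; 95% interval -0.54 to -0.20; limma adjusted p = 0.00414), to 77.3% of its air level. It fell by 0.30 against low plants (adjusted p = 0.0139) and by 0.33 against outside plants (adjusted p = 0.00667). The plants of a group lay close together: the pooled SD within groups was 0.094, and 3.34% of the 14151 probe sets with a mean more than 1 above the lowest value had a smaller one. In high against low the adjusted p was 0.0501 without low plant 1 and 0.0518 without high plant 1.

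FDH stood at 12.13, 12.37 and 12.58 in the outside plants, at 12.67, 11.72 and 12.72 in air and at 12.63, 12.22 and 12.21 in the low plants. In the high plants it stood at 11.64, 12.11 and 11.98. Air plant 2 lay among the high plants, and apart from it the high plants lay below all others. The group means were 12.37 ± 0.57 (SD, n = 3) in air, 12.36 ± 0.23 outside, 12.35 ± 0.24 at low and 11.91 ± 0.24 at high formaldehyde. The first 3 of these did not differ beyond their spread, and the high plants lay below the low and the outside plants without overlap.

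The log2 change of FDH was -0.46 ± 0.27 (SE) in high against air, with a 95% interval from -1.08 to 0.16 and a limma adjusted p of 0.267. It was -0.44 against low and -0.45 against outside plants (adjusted p = 0.296 and 0.276). These estimates were larger than those of FOLD2, and the plants of a group were farther apart, with a pooled SD of 0.35 that exceeded that of 77.3% of the same 14151 probe sets. The estimate in high against air depended on the air plants, in either direction. Without air plant 2, which lay among the high plants, the change was -0.79 and the adjusted p 0.0164. Over the other 11 fits that each left out a plant the change did not pass. It was -0.31 without air plant 1 and -0.28 without air plant 3. Even without air plant 2, FDH did not pass in high against low or high against outside (adjusted p = 0.0903 and 0.0815).

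FOLD1, known as the mitochondrial enzyme of the family, stood at 7.58, 7.46 and 7.44 in the outside plants, at 7.45, 7.46 and 7.86 in air and at 7.45, 7.49 and 7.53 in the low plants. In the high plants it stood at 7.39, 7.01 and 7.45. High plant 2 and air plant 3 lay apart, at the low and the high end, and the groups overlapped. The group means were 7.59 ± 0.23 (SD, n = 3) in air, 7.50 ± 0.07 outside, 7.49 ± 0.04 at low and 7.28 ± 0.24 at high formaldehyde. The log2 change was -0.31 ± 0.14 (SE) in high against air, with a 95% interval from -0.62 to 0.0058 and a limma adjusted p of 0.128. Without high plant 2 it was -0.17, and without high plant 3 it was -0.39.

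**Figure D1:**
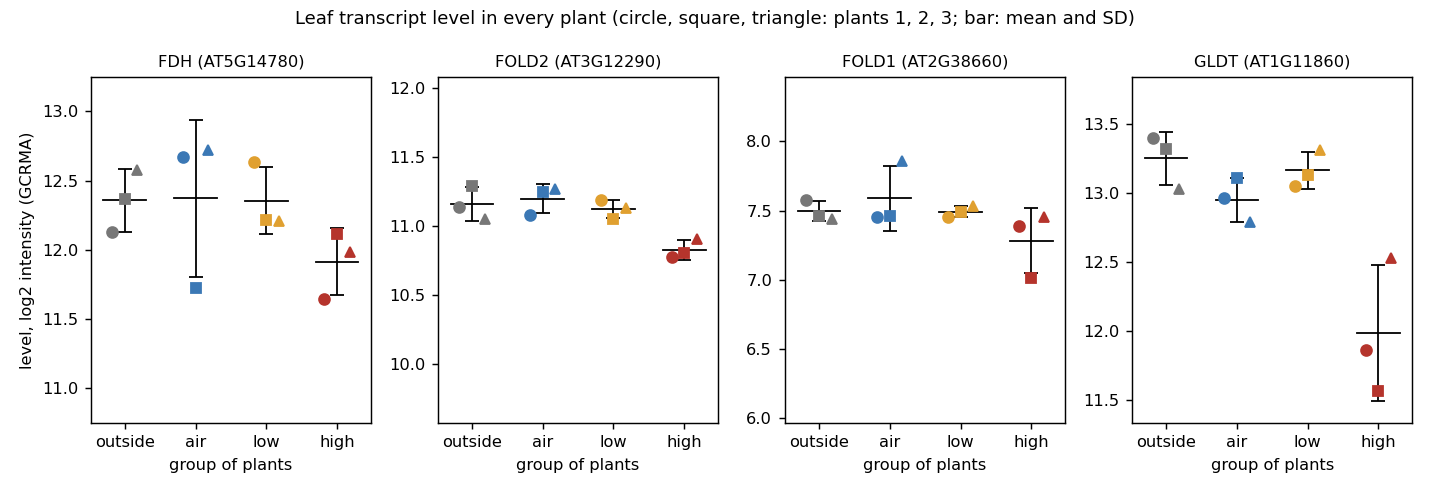
Log2 level (vertical axis) of FDH, FOLD2, FOLD1 and GLDT in each of the 12 plants, by group (horizontal axis), with the group mean and SD as bars and the plants as circle (1), square (2) and triangle (3). All panels span the same log2 range. The high plants lie lowest for GLDT (11.57 to 12.53) and FOLD2 (10.77 to 10.90), and air plant 2 lies at 11.72 for FDH.

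In all, 2 of the 4 genes were called in high against air, both lower, where 34.6% of all probe sets were called and 19.9% were called lower. High against low gave the same 2 genes (33.8% of all probe sets called, 18.3% lower), as did high against outside (37.5% called, 21.1% lower). With so many probe sets called, 2 of 4 is not a result particular to these genes. All 4 changes were below 0 in each of these pairs, with a median of -0.42, -0.37 and -0.39 in that order. The median over all probe sets was 0.00 in each. Among the 7977 probe sets with a mean of at least 7.46, the mean of FOLD1, it was -0.21, -0.19 and -0.21. Of these brighter probe sets 61.1%, 61.0% and 60.2% had estimates below 0. The share of them called lower in high against air was 36.5%. In high against air the high plants lay below the other group without overlap for 2 of the 4 genes, as they did for 24.1% of all probe sets, and for 3 of the 4 against low (24.5% of all probe sets) and against outside (26%). An F test of any difference among the 4 groups passed for GLDT (limma adjusted p = 0.00497) and FOLD2 (0.0109). FDH (0.507) and FOLD1 (0.375) did not pass it, and 40.8% of all probe sets did.

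At low formaldehyde limma called 0 of the 4 genes against air, also 0 at an unadjusted p under 0.05, where 1.24% of all probe sets were called. GLDT had a log2 change of 0.21 (95% interval -0.30 to 0.72), FDH -0.02 (-0.64 to 0.60), FOLD2 -0.08 (-0.25 to 0.10) and FOLD1 -0.10 (-0.41 to 0.21). The intervals for FDH and FOLD1 hold their estimates of high against air, -0.46 and -0.31, whereas those for GLDT and FOLD2 end above theirs, -0.96 and -0.37. In air against outside, which compares plants in and out of the chamber without added formaldehyde, limma called 0 of 4 (0 at an unadjusted p under 0.05; 5.6% of all probe sets called). GLDT had the estimate farthest from 0, -0.30 (-0.81 to 0.21). In low against outside it also called 0 of 4 (0 unadjusted; 7.8% of all probe sets called), with changes from -0.09 for GLDT to -0.0034 for FOLD1.

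**Figure D2:**
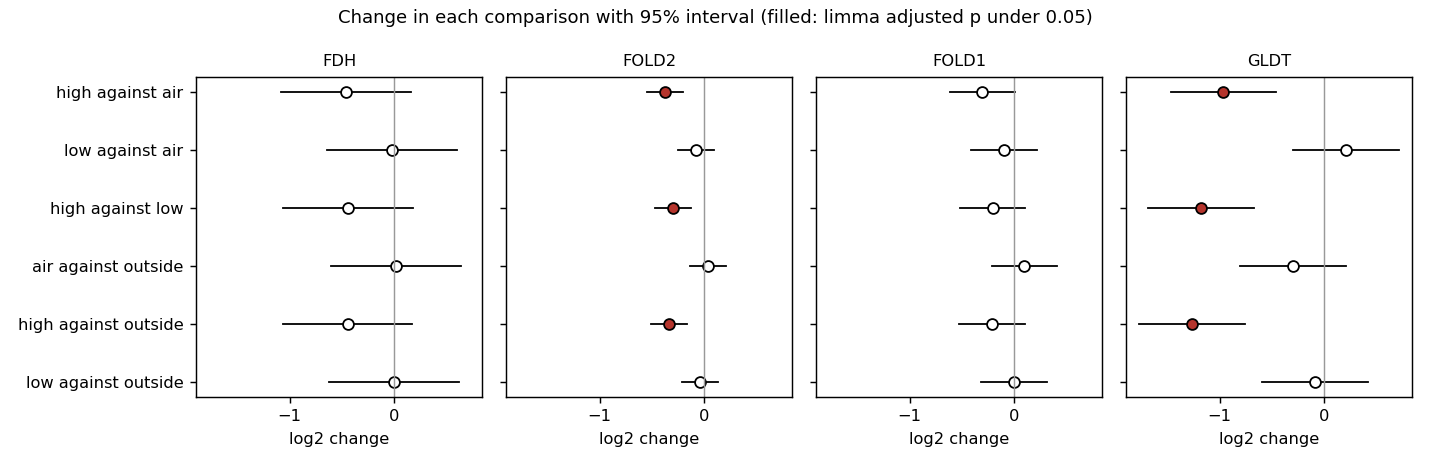
Log2 change (horizontal axis) of the 4 genes in the 6 pairs of groups, with 95% intervals as lines. Filled points passed the limma threshold. These are GLDT and FOLD2 in the 3 comparisons of high plants, for example -0.96 and -0.37 against air.

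The other genes of these routes were taken from 7 lists of 79 genes, among them the 4 genes described above, and 15 others were measured. In high against air 9 of the 15 fell, 0 rose and 6 did not pass, with 15 of 15 estimates below 0, AT1G69190 at -0.0013, and a median of -0.54. For comparison, 19.9% of all probe sets were called lower. Of the 15 genes 10 were as bright as FOLD1 or brighter, and 6 of these fell, where 36.5% of the 7977 probe sets as bright were called lower and 61.1% had estimates below 0. Among the 5 dimmer genes 3 fell. In high against low 12 of the 15 fell and 0 rose (18.3% of all probe sets called lower), and in high against outside 9 fell and 0 rose (21.1%). Of the 7977 brighter probe sets, 61.0% and 60.2% had estimates below 0 in these pairs, for which their share called lower is not given. With the 4 genes included, 14 and 11 of 19 were called there, and 10 to 14 and 9 to 12 over the alternative fits. In low against air limma called 0 of 15, with 1 at an unadjusted p under 0.05, and 4 of the 15 estimates were below 0. The lists for serine synthesis and the methyl cycle had 0 measured genes. HOT5 and SFGH, which carry formaldehyde to formate, and THFS, which joins formate to folate, had no probe set paired with them alone.

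The counts by list, below, stand against the same 19.9% of all and 36.5% of the brighter probe sets called lower in high against air, and lists of so few genes were not tested as such. In glycine cleavage, 1 of the 2 other measured genes fell. AT1G32470, listed as GLDH3, an H protein that carries the aminomethyl group between the subunits, stood at 12.18, 11.84 and 12.87 in the high plants and at 12.87, 13.50 and 13.09 in air. High plant 3 and air plant 1 were level, so the groups overlapped. Its log2 change was -0.85 ± 0.27 (SE, limma adjusted p = 0.0345), the call was lost in 5 of the 12 fits that each left out a plant (adjusted p up to 0.121, without air plant 2), and it was also lost with the replicate number as a block (0.0504) and on the 6 arrays alone (0.134). AT2G35120, listed as GLDH2, another H protein, had -0.29 (adjusted p = 0.563). For GLDT, GLDH3 and GLDH2 alike, high plant 2 was the lowest and high plant 3 the highest of the high plants. This order is not particular to glycine cleavage. It was also that of FOLD1, AT5G47435, AT5G13050, AT3G07270, FOLB1, AT1G79870, AT1G80380 and AT1G32080 of the other lists, though not of all their genes.

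Folate synthesis genes had 4 falls among 6 measured, where 19.9% of all probe sets were called lower. FOLB1 and FOLB2, dihydroneopterin aldolases that act on the pterin part of folate, fell by 1.41 (limma adjusted p = 3.9e-05) and 0.99 (adjusted p = 3.41e-04). FOLB1 stood at 5.94, 5.72 and 6.04 in the high plants and at 7.43, 7.19 and 7.30 in air. ADCL, the plastid enzyme that makes aminobenzoate, fell by 0.95 (adjusted p = 4.2e-04). It was the only one of the 19 genes called in air against outside, where 5.6% of all probe sets were called. There it rose by 0.65 (adjusted p = 0.0250). That call was lost with the replicate block (0.0649), on the 6 arrays (0.184) and in 3 of the 12 fits that each left out a plant (up to 0.0845, without air plant 2). Against the outside plants the high plants had -0.30 (adjusted p = 0.106). AT4G30000, listed as HPPK/DHPS, which joins the pterin and aminobenzoate, fell by 1.01 (adjusted p = 0.0123), or with an adjusted p of 0.0860 on the 6 arrays alone. AT3G07270, listed as GCHI, of the first step of the pterin branch, had -0.03, and AT1G69190, another gene for the joining enzyme, stood at or near the lowest value in all plants. FOLB2 was also higher in low than in outside plants, by 0.52 (adjusted p = 0.0432), where 7.8% of all probe sets were called. Its call was lost with robust variances (0.0527) and with the replicate block (0.0774). It was also lost in 8 of the 12 fits that each left out a plant (up to 0.143, without low plant 3).

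Of the 3 other folate interconversion genes 1 fell in high against air, where 19.9% of all probe sets were called lower. The gene that fell was dimmer than FOLD1, so the 36.5% of the brighter probe sets is not its background. AT4G17360, listed as PURU1, a deformylase that releases formate from formyl tetrahydrofolate, fell by 0.39 (limma adjusted p = 0.0405), a call that was lost in 6 of the 12 fits that each left out a plant (adjusted p up to 0.130, without high plant 1), with the replicate block (0.0827), with array medians subtracted (0.0805) and on the 6 arrays (0.0869). The related AT5G47435, listed as PURU2, had -0.40 (adjusted p = 0.0517), and passed at 0.00243 without high plant 3 and in 4 of the 8 alternatives that kept all plants of the pair, with adjusted p from 0.0139 with array weights to 0.0498 with the replicate block. The cycloligase 5-FCL (AT5G13050), which returns the stored formyl form to use, had -0.30 (adjusted p = 0.0733). In high against low all 3 fell, by 0.64, 0.61 and 0.36, though the call of 5-FCL was lost on the 6 arrays and in 4 of the 12 fits that each left out a plant (adjusted p up to 0.120, without high plant 2), and that of PURU2 on the 6 arrays (0.0545). Set beside these, FOLD2 had -0.37 and FOLD1 -0.31 against air.

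Of 4 other photorespiration genes 3 fell in high against air, where 19.9% of all and 36.5% of the brighter probe sets were called lower. HPR (AT1G68010, listed as HPR1), the peroxisomal hydroxypyruvate reductase, fell by 0.72 (limma adjusted p = 0.00417), and stood at 12.89, 12.81 and 12.69 in the high plants and at 13.18, 13.70 and 13.68 in air. AT1G79870, listed as the cytosolic reductase HPR2, fell by 0.54 (adjusted p = 0.0104). LrgB (AT1G32080, listed as PLGG1), which carries glycolate and glycerate across the chloroplast envelope, fell by 0.81 (adjusted p = 0.0259). That call was lost in 3 of the 12 fits that each left out a plant, with an adjusted p up to 0.0900 without air plant 2, and had 0.110 on the 6 arrays alone. AT1G80380, listed as glycerate kinase GLYK, had -0.20 (adjusted p = 0.436) and fell by 0.52 in high against low (adjusted p = 0.0394), a call lost in 9 of the 12 fits that each left out a plant (up to 0.140, without high plant 2), with the replicate block (0.0821) and on the 6 arrays (0.0679).

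**Figure D3:**
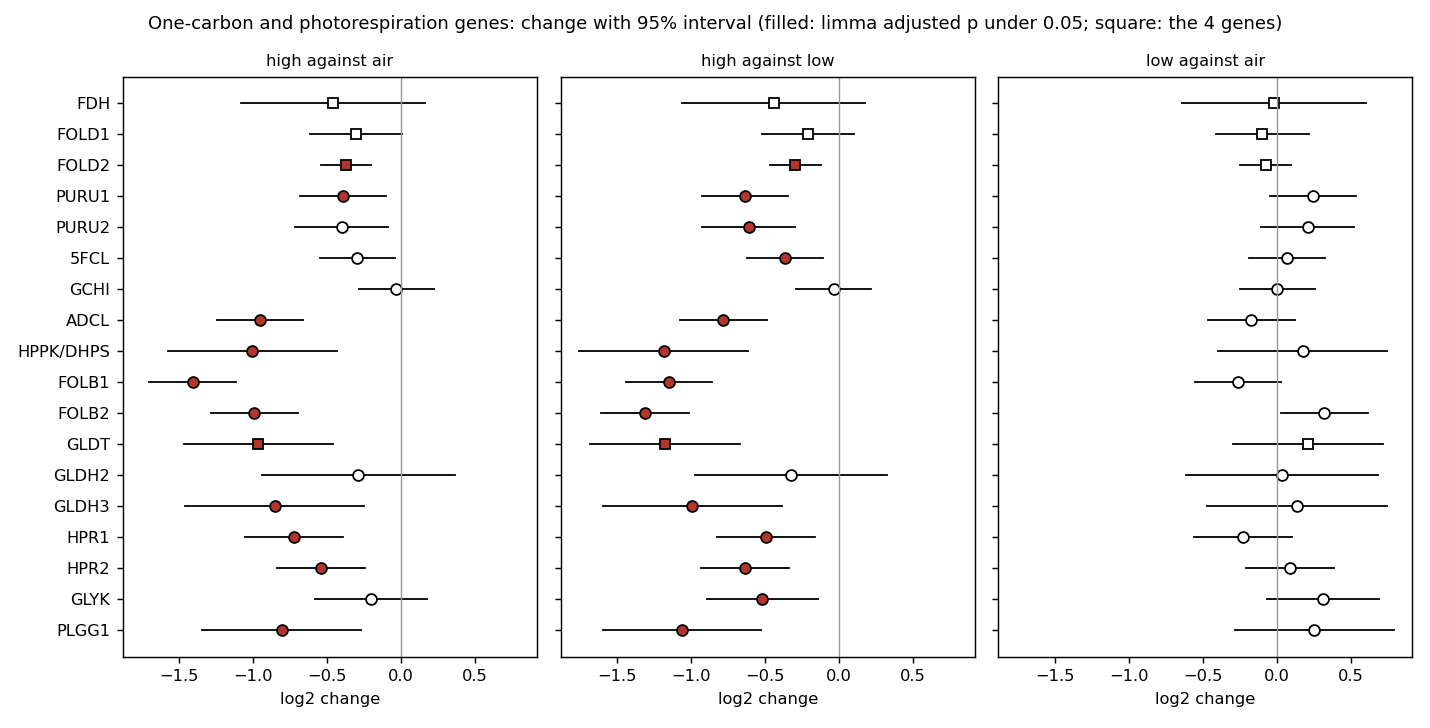
Log2 change with 95% interval (horizontal axis) of 18 genes of one-carbon metabolism and photorespiration (vertical axis; squares are the 4 genes, 5FCL is 5-FCL) in 3 pairs of groups. Filled points passed the limma threshold. All estimates lie at or below 0 in high against air, down to -1.41 for FOLB1, while in low against air none is filled.

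The place of high plant 3 among the high plants was not particular to these genes. For FOLD2 the 3 high plants lay close together, at 10.77, 10.80 and 10.90. High plant 3 stood nearest to the mean of the air plants for 3 of the 4 genes and for 6 of the 9 others called lower in high against air. It was also the nearest for 49.2% of all 4516 probe sets called lower in high against air and for 51.2% of the 3351 called higher. Without it the log2 change of GLDT was -1.23 and that of GLDH3 -1.14, against -0.96 and -0.85 with all plants.

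**Figure D4:**
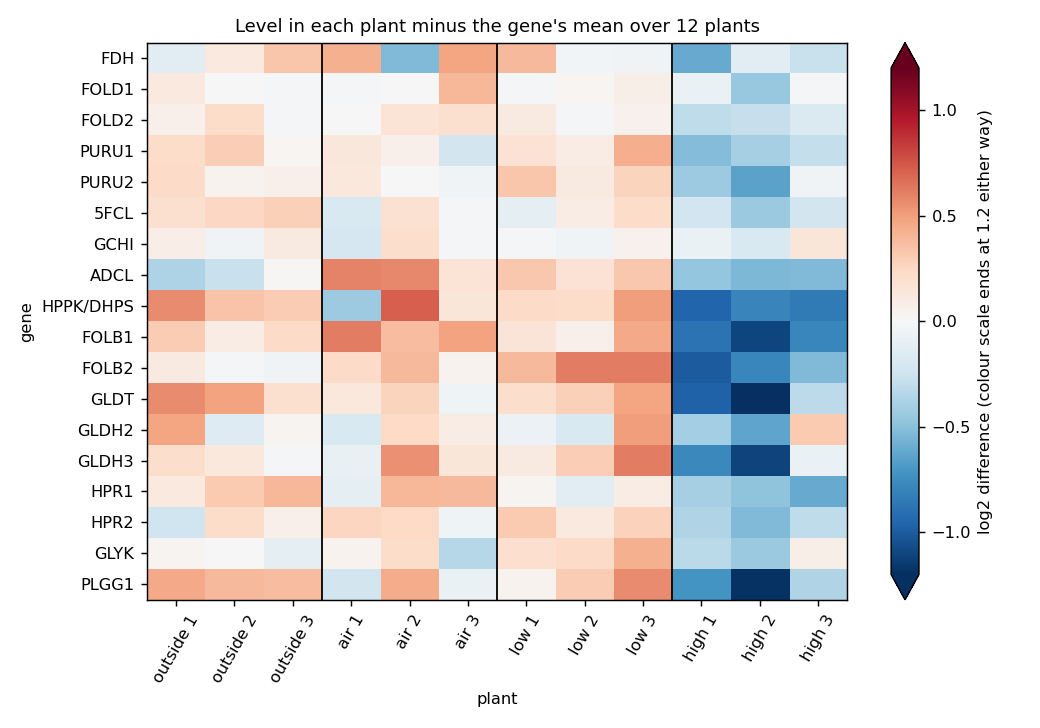
Log2 level of each of 18 genes (rows) in each plant (columns) minus the gene's mean over the 12 plants, with red above and blue below that mean. High plants 1 and 2 are blue for every gene shown. High plant 3 is paler for most, above the mean for GCHI, GLDH2 and GLYK, and the lowest of the high plants for HPR1. The FDH row is blue in air plant 2, where it reads 11.72. AT1G69190, near the lowest value in all plants, is not shown.

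The genes whose levels followed each member most closely over the 12 plants were sought among 7404 single-gene probe sets with an SD of at least 0.2 (7403 for FDH and GLDT, which are in that set themselves). The high plants stand apart in many genes, so genes that fall there can correlate for that alone, and how common this is was not counted. For GLDT these were AT3G03980 (Pearson r = 0.985, n = 12 plants), AT1G67750 (r = 0.983) and AT5G22340 (r = 0.983). AT3G03980 had the same order of high plants, with 6.33, 5.94 and 6.85. For FOLD2 they were AT3G60340 (r = 0.966), AT3G45190 (r = 0.964) and AT4G13200 (r = 0.961). For FOLD1 they were AT3G16560 (r = 0.833), AT1G32260 (r = 0.830) and AT2G29340 (r = 0.815), with lower Spearman rank correlations of 0.50, 0.78 and 0.68. For FDH they were AT1G68110 (r = 0.883), AT5G63200 (r = 0.870) and AT2G15960 (r = 0.839). Each of these 3 also had its lowest air level in plant 2, with AT2G15960 at 12.59, 11.20 and 12.11 in air plants 1, 2 and 3, and they were picked for their likeness to FDH over the same plants.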

How the data were processed

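About 100 mg of leaf per plant gave the total RNA, of which about 10 µg went into a biotin-labelled target for 1 array, per the labels' protocols. The authors deposited a log2 intensity for each probe set, made with GCRMA per the submitters' processing notes, with no version or options given in the sources used here. These values entered the analysis without further normalization. Of 22810 probe sets, 64 array controls were left out of the tests. Array medians lay between 5.68 and 5.82, and 26.6% to 28.0% of an array's probe sets stood at the lowest value, 2.11. Depth does not apply to arrays; the number of plants limits the precision.

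The supplied annotation gives a single gene for 13513 of the tested probe sets, several genes for 503 and no gene for 8730. Of the single-gene ones, 13436 matched the TAIR10.1 reference table by gene identifier, which served for names only. A gene was read only from a probe set paired with it alone. Scans, sequences and genome positions were not used here.

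Groups were compared with limma 3.58.1 (R 4.3.3): 1 linear model of all 12 arrays (8 residual degrees of freedom), trended moderated variances, two-sided, with Benjamini-Hochberg adjustment over the 22746 probe sets. All adjusted p-values are limma's. The fit was also run on simulated data with independent noise for each probe set and plant, which does not test the calls given here. Plots used Python 3.11.15, pandas 2.3.3 and matplotlib 3.10.9. The labels number the plants within groups and name no shared source. Deviations of same-numbered plants correlated from -0.30 to 0.25 over 18 pairs, 5 of them over 0.1, so the numbers were not taken as pairs.

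The members and lists were chosen with earlier results of these data known. The text names the 4 members, the measured list genes, and the 3 genes most alike each member. The background of brighter probe sets was added after seeing the data. Alternatives were 2 normalizations, a filter on dim probe sets, 2 variance models, array weights, a replicate block, a fit on the 6 arrays compared, and each plant left out in turn.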

Additional observations from a re-analysis of the deposited data

How the results depend on the processing

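The calls of GLDT and FOLD2 in the 3 comparisons of the high plants were recomputed 120 times in all, and 117 kept direction and call. The 3 losses were GLDT in high against air on the 6 arrays alone (log2 change -0.96, adjusted p = 0.0620) and FOLD2 in high against low without low plant 1 and without high plant 1 (adjusted p = 0.0501 and 0.0518; changes -0.33 to -0.26 over the plants left out). FDH in high against air ran from -0.79 without air plant 2, where it passed, to -0.28 without air plant 3. The cause was not tested.

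Directions turned only for changes that passed in no fit. With each array's median subtracted, FDH had 0.048 in low against air, -0.0084 in air against outside and 0.039 in low against outside, FOLD1 had 0.040 and FOLD2 0.0055 in low against outside, and GCHI 0.039 in high against air. FOLD1 had 0.019 in low against outside after quantile normalization. With array weights FDH had 0.055 in low against air and -0.11 in air against outside. With plants left out in turn, FDH ran from -0.34 to 0.16 in low against air, from -0.16 to 0.34 in air against outside and from -0.14 to 0.11 in low against outside. FOLD1 ran from -0.17 to 0.037, from -0.041 to 0.16 and from -0.030 to 0.039 in the same pairs. FOLD2 ran from -0.017 to 0.10 in air against outside and from -0.093 to 0.029 in low against outside, and GCHI from -0.13 to 0.073 in high against air.

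The number of all probe sets called in low against air was 283, but 678 with medians subtracted (488 higher and 190 lower, against 172 and 111), 1179 without dim probe sets, 1719 with array weights, 81 with the replicate block and 7 on the 6 arrays, and with 1 plant left out it lay between 76 (low plant 2) and 2250 (air plant 1). In air against outside it was 1274, but 1949 without dim probe sets, 845 with the replicate block and 58 on the 6 arrays, with 603 without air plant 2 to 2137 without air plant 1. In low against outside it was 1775, but 2897 with array weights, with 820 without low plant 3 to 2273 without air plant 1. Of the 19 one-carbon genes, 11 were called in high against air (34.6% of all probe sets called) and 6 on the 6 arrays (6231 of all probe sets). In air against outside 1 was called (5.6% of all probe sets), 0 with the replicate block or the 6 arrays, and 0 to 1 with plants left out. In low against outside 1 was called (7.8% of all probe sets), and 2 with medians subtracted, without dim probe sets or with array weights. With robust variances or the replicate block it was 0, and with plants left out 0 to 2. The replicate block changed the calls of 0 of the 4 members.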
